A study of Mus musculus with 6 samples.

Results

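The granins and the enzymes that process prohormones were followed in the mouse hippocampus at 22 months (22M) and at 3 months (3M) of age. The 10 genes were chosen by name for their roles, with earlier results of these data known, out of 13321 genes in the deposited table. The rule itself uses no measured value. They are Chga, Chgb, Scg2, Scg3, Scg5, Vgf, Pcsk1, Pcsk1n, Pcsk2 and Cpe, and all 10 passed the filter on low values. The study asked which hippocampal mRNAs differ between aging and young animals. Libraries 72, 76 and 78 came from 22M hippocampus and libraries J11, J13 and J15 from 3M hippocampus, all from male WT mice of the inbred C57 BL/6 strain, with no agent given to either age as far as the labels say. The labels do not state that the 3 libraries of an age came from separate mice, so every p-value here measures the spread between these libraries. Polyadenylated RNA of bulk hippocampus tissue was sequenced. Levels are FPKM (mapped fragments, scaled to the length of the transcript and the size of the library), summed over the transcripts of a gene. In such bulk tissue, fewer cells of a type and less RNA per cell cannot be told apart.

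Peptide hormones and neuropeptides are made as long precursors that are packed into dense core granules. Granins are acidic, aggregating proteins of these granules that help cargo to condense, and several of them are themselves cut into peptides. Inside the granule the convertases Pcsk1 and Pcsk2 cut precursors at pairs of basic residues, and the carboxypeptidase Cpe trims the basic residues left at the new ends. Scg5 (also called 7B2) is a chaperone that Pcsk2 needs for its maturation and that also carries an inhibitory peptide, while Pcsk1n (proSAAS) holds a peptide that inhibits Pcsk1. In the hippocampus these proteins are found in principal neurons and in peptide-releasing interneurons.

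The promoters of 8 of the 10 genes were in the RefSeq promoter table for GRCm38.p6, which holds 300 bases per start, 250 before it and 50 after it. These letters are shown because the cAMP response element, a palindrome bound by CREB family factors, is a feature several granin genes are known for and was not used to choose the genes. The palindrome TGACGTCA was in the promoters of Chgb, Scg2 and Pcsk1, which is 3 of 8 genes, against 1.79% of the 32851 promoters in the table. The variant TGACGTAA, read on either strand, was in the Chga promoter and in 0.499% of all promoters. The shared first letters TGACG, which overlap both, were found on either strand in 7 of 8 genes (Chga, Chgb, Scg2, Scg3, Scg5, Pcsk1 and Pcsk2) and in 20.8% of all promoters. A gene was counted if any of its promoters matched, whereas the shares are of single promoters. In the 30 bases given for each gene, 5′ to 3′ on the strand of the gene, capitals mark the element.
Chga, chr12:102554886-102554915, + strand: gggcggtcctaTGACGTAAtttcctgggtg
Chgb, chr2:132781559-132781588, + strand: gggctgctccgTGACGTCAgggctgagcga
Scg2, chr1:79440076-79440105, - strand: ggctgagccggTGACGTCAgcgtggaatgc
Pcsk1, chr13:75089768-75089797, + strand: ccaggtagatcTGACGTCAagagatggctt
The element began 44 bases before the RefSeq start of Chga, 72 before that of Chgb, 68 before that of Scg2 and 78 before that of Pcsk1. In the Chgb and Scg2 genes these bases lie inside an exon of the Ensembl transcripts Chgb-201 and Scg2-201, which begin upstream of the RefSeq start. A match describes the letters only.

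The libraries did not all hold the same mixture of tissue. The 10 listed hippocampal neuron markers were all present, and they summed to 449 to 556 FPKM in 22M libraries and to 394 to 560.1 FPKM in 3M libraries. The sum was lowest in J11. All 22M libraries lay above all 3M libraries for 2 of the 10, Prox1 and Dsp, against 13.3% of all genes. They lay below for 0 of the 10, against 21.1%. All 9 striatum markers had their highest level in library J11, where they summed to 597 FPKM, against 25.0 to 37.5 FPKM in 22M libraries and 36.0 and 42.0 FPKM in the other 3M libraries. Thalamus and habenula markers summed to 42.6 to 45.3 FPKM in 22M libraries, against 67.6 to 144 FPKM in 3M libraries. Their sum was highest in J13, and 4 of the 12 tested fell. Among these 4, Shox2 averaged 0.183 FPKM at 22M and 9.52 FPKM at 3M. Shox2 passed the filter on low values only through the 3M libraries, so its call is a description only. Choroid plexus markers summed to 191 to 3365 FPKM in 22M libraries and to 1872 to 2866 FPKM in 3M libraries, with the lowest sum in library 78. Of 9 hypothalamus markers 2 were listed, and their sum stayed at or below 0.619 FPKM in 22M libraries and at or below 3.34 FPKM in 3M libraries. Among 10 pan-neuronal markers, Map2 rose and Uchl1 fell. Of 9 oligodendrocyte markers 5 fell, and all 5 erythroid markers rose. Over all genes 0.92% rose and 1.21% fell. Of the 10 genes, 6 had their highest level in J13, 2 in J11 and 1 each in 78 and J15. The part of these differences in the results below was not tested. Values without J11 are given for Chgb, Scg2, Vgf and the lists of related genes. Values without J13 are given for Chga, Scg5, Vgf, Pcsk1n and the Pcsk2 over Scg5 ratio.

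None of the 10 genes rose or fell with age. Rose and fell are used here only for a limma p under 0.05 after Benjamini-Hochberg adjustment over the 13041 genes tested, a rule by which 0.92% of all genes rose and 1.21% fell (2.13% in all). The study itself asked for P under 0.05 without adjustment and at least a 1.5-fold change, which is 0.585 on the log2 scale. Here these thresholds were put on the unadjusted limma p and the limma fold change, which need not be the test the study used. By them 0 of the 10 genes were higher and 0 were lower, against 4.08% and 4.22% of all genes (8.3% in all). At an unadjusted limma p under 0.05 alone 2 of 10 passed, Chga and Scg5, against 27% of all genes. Limma with array weights, by which 9.93% of all genes passed, called 2 of 10 (Chga and Scg5), with 3 of 10 at an unadjusted p under 0.05. Limma without a trend, by which 0.284% of all genes passed, and a linear model with each gene's own variance, by which 0 of 13041 passed, called 0 of 10, each with 2 of 10 at an unadjusted p under 0.05. The 22M libraries all lay below the 3M libraries for 3 of 10 genes (Chga, Scg2 and Scg5), against 21.1% of all genes, and all above them for 0 of 10, against 13.3% (34.4% without overlap in either direction). The median log2 fold change of the 10 genes, 22M over 3M, was -0.21, beside -0.05 over all genes tested. Together the 10 genes made up 0.523%, 0.532% and 0.563% of the listed FPKM in 22M libraries 72, 76 and 78, against 0.527%, 0.598% and 0.569% in 3M libraries J11, J13 and J15. These shares overlapped, and their difference of -0.0251 percentage points gave p = 0.3 in an exact two-sided permutation test, where 3 libraries against 3 cannot go below 0.1.

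The levels spanned a wide range, in an order that was much the same at both ages. Cpe was the highest of the 10 in every library and ranked 22 among the 13321 genes by its mean. Chgb and Pcsk1n held the next places in every library, in either order. Scg3, Scg5 and Scg2 came below them, then Chga, Vgf and Pcsk2, and Pcsk1 was the lowest in every library, at rank 6556 of the table. Scg3 lay above Scg5 in all 22M libraries and below it in all 3M libraries.

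**Figure D1:**
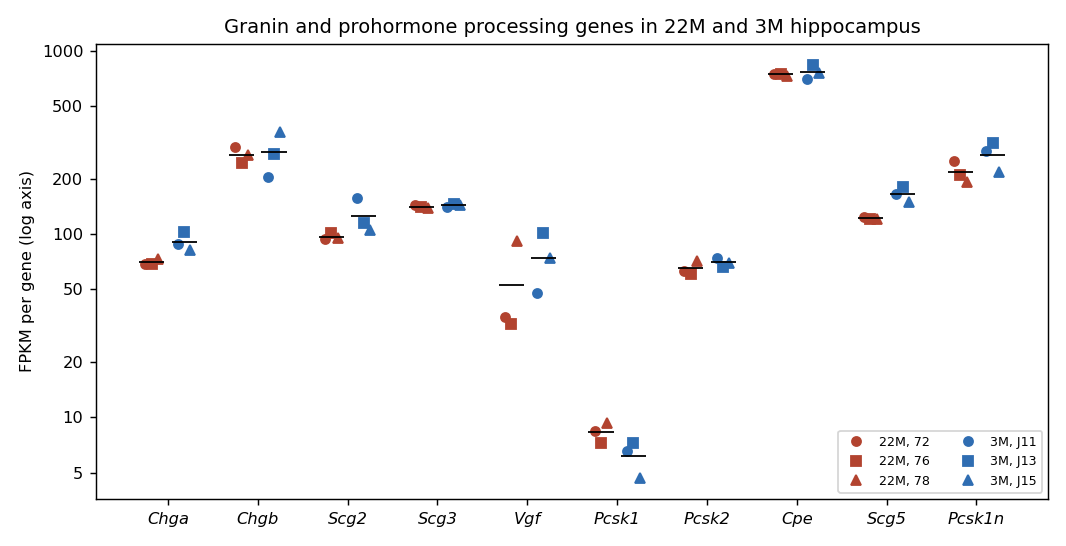
FPKM of each of the 10 genes in each library on a log axis, with 22M libraries left of 3M libraries and a bar at the mean of each group. Cpe lies near 740.4 FPKM at 22M and 764 FPKM at 3M, and Pcsk1 near 8.37 FPKM at 22M and 6.15 FPKM at 3M. The points of Vgf are spread most within an age.

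Among the granins, Chga and Scg2 were lower in every 22M library than in any 3M library, and Chgb and Scg3 overlapped. Chga (chromogranin A, on chromosome 12 at 102554969 to 102565028 of GRCm38, + strand, 8 exons) is the precursor of pancreastatin and catestatin. Its level was 68.6, 68.2 and 73.2 FPKM in 22M libraries, against 87.7, 103 and 81.8 FPKM in 3M libraries. The 22M libraries lay close together and the 3M libraries were spread wider, with no overlap. Chga averaged 70.0 ± 2.77 FPKM at 22M and 90.8 ± 11.01 FPKM at 3M (SD, n = 3 each). Its log2 fold change was -0.37 (SE 0.102, limma adjusted p = 0.0875), which did not pass. Without J13, where Chga was highest, the log2 fold change was -0.27 (limma adjusted p = 0.1998). Leaving out each library in turn gave log2 fold changes of -0.44 to -0.27 for Chga, with no call.

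Chgb (chromogranin B, chromosome 2 at 132781278 to 132795079, + strand, 5 exons) is the second classical granin of the granule core. It measured 298, 242 and 269 FPKM in 22M libraries, against 205, 273 and 362 FPKM in 3M libraries. The 3M libraries enclosed all values at 22M. Its log2 fold change was -0.02 (SE 0.204, limma adjusted p = 0.955), and its sign turned with the scaling of the libraries, with the length correction and without library 76 or J15. Without J11 it was -0.23 (limma adjusted p = 0.420). The 95% interval of -0.51 to 0.46 leaves room for a change of either sign.

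Scg2 (secretogranin II, chromosome 1 at 79434669 to 79440120, - strand) is the precursor of the peptide secretoneurin. Its 2 listed transcripts summed to 93.6, 101 and 94.9 FPKM in 22M libraries, against 157, 114 and 105 FPKM in 3M libraries. The groups did not overlap, and J11, the library with the striatum markers, was the highest of all. Scg2 averaged 96.5 ± 4.02 FPKM at 22M and 125 ± 27.8 FPKM at 3M (SD, n = 3 each). The change of -0.35 on the log2 scale (SE 0.153, limma adjusted p = 0.196) did not pass, and without J11 it was -0.18 (limma adjusted p = 0.277).

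The 2 Scg2 transcripts, which share their 3′ end and differ in their start and number of exons, were listed in different proportions. Scg2-201 (2 exons, 2515 bases) took 49.6%, 24.2% and 47.6% of the Scg2 FPKM in 22M libraries, against 20.6%, 18.1% and 21.5% in 3M libraries. All 22M shares lay above the 3M shares, with library 76 close to the 3M values. In limma over the 23637 transcripts tested, of which 0.207% rose or fell, Scg2-201 had a log2 fold change of 0.58 (adjusted p = 0.386) and Scg2-202 one of -0.80 (adjusted p = 0.193). Neither passed, and how the fragments shared by both transcripts were divided is not given in the sources used here. Scg2-202 averaged 57.8 FPKM at 22M and 100.1 FPKM at 3M, and when each gene was represented only by its highest transcript, Scg2 was lower at the study's thresholds, as were 4.7% of all genes.

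**Figure D2:**
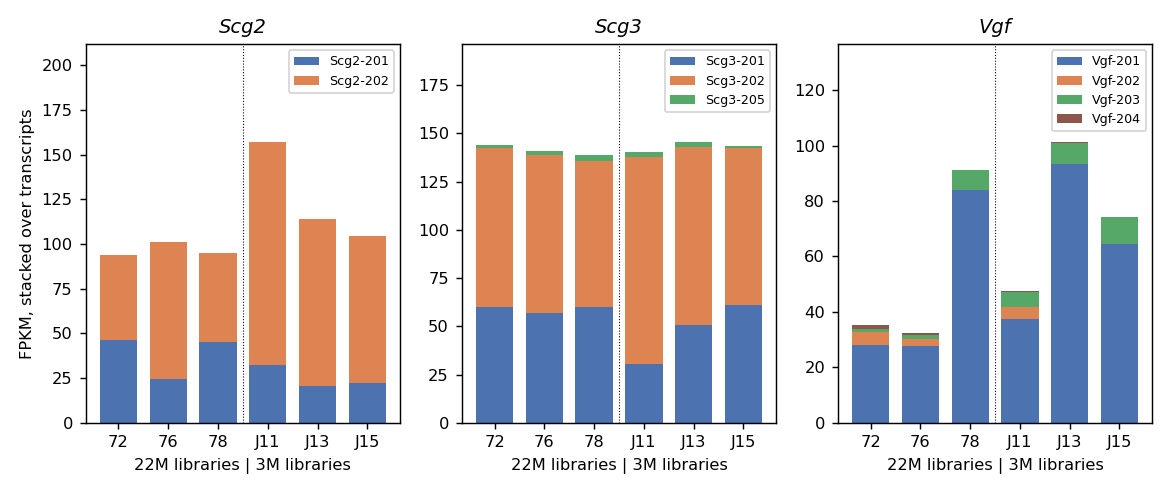
FPKM of each listed transcript of Scg2, Scg3 and Vgf, stacked for each library. The 22M libraries 72, 76 and 78 are left of 3M libraries J11, J13 and J15. Scg2-201 makes up 24.2% to 49.6% of the Scg2 bars at 22M and 18.1% to 21.5% at 3M. Vgf-202 is listed at 0 in libraries 78, J13 and J15.

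Scg3 (secretogranin III, chromosome 9 at 75643189 to 75684056, - strand) binds chromogranin A and the cholesterol-rich granule membrane. It was the steadiest granin, at 144, 141 and 139 FPKM in 22M libraries, against 140.2, 145 and 143 FPKM in 3M libraries. The groups overlapped, and the log2 fold change was -0.02 (SE 0.0646, limma adjusted p = 0.873, 95% interval -0.17 to 0.14), with a sign that turned under other scalings and the length correction. Its transcripts Scg3-201 and Scg3-202 carried nearly all of it, and Scg3-205 between 0.637% and 2.06% in any library.

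Vgf (chromosome 5 at 137030295 to 137033351, + strand, for its main transcript Vgf-201) is a granin-like precursor that was first known as a gene induced by nerve growth factor. It measured 35.2, 32.3 and 91.3 FPKM in 22M libraries, against 47.6, 101 and 74.3 FPKM in 3M libraries. Library 78 reached the level of the upper 3M libraries and J11 came near the lower 22M libraries, so the groups overlapped. Vgf averaged 52.9 ± 33.3 FPKM at 22M and 74.4 ± 26.8 FPKM at 3M (SD, n = 3 each). Its change of -0.59 on the log2 scale (SE 0.445, limma adjusted p = 0.431) had the widest interval of the 10 genes. Single libraries moved it much. Without library 78 the log2 fold change was -1.06 (limma adjusted p = 0.171) and Vgf was lower by the study's thresholds, as were 3.88% of all genes. It was -0.38 without library 72, -0.32 without 76, -0.34 without J13 and -0.87 without J11, with no call by either rule.

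**Figure D3:**
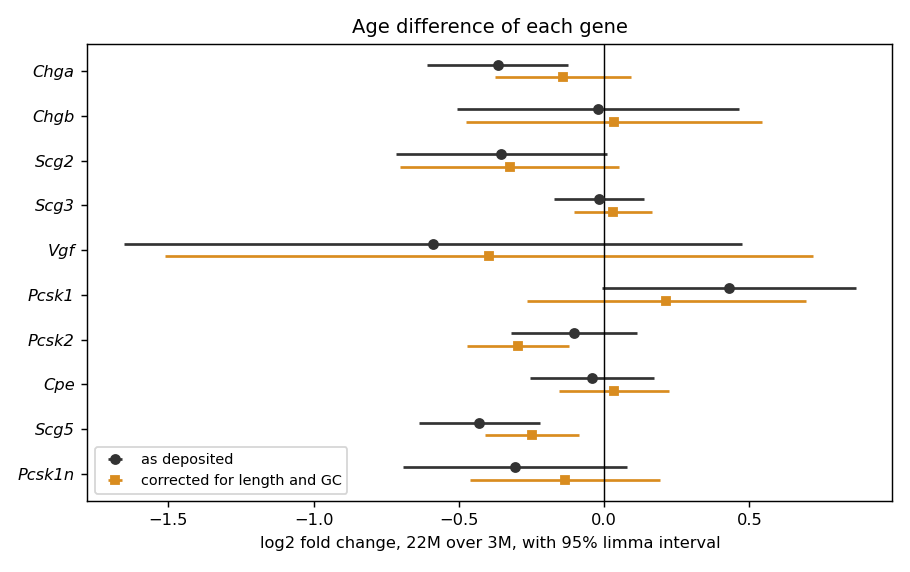
Log2 fold change, 22M over 3M, of each of the 10 genes with its 95% limma interval, as deposited (dark circles) and after the values were corrected for the length and GC content of the transcripts (orange squares). The deposited intervals of Chga and Scg5 lie below 0, and after the correction those of Scg5 and Pcsk2 do, none with an adjusted p under 0.05.

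Neither convertase passed the test. Pcsk1 (chromosome 13 at 75089826 to 75134861, + strand, 14 exons), which makes the early cuts in many precursors, was the only one of the 10 with a positive fold change in the deposited values. It measured 8.47, 7.26 and 9.38 FPKM in 22M libraries, against 6.53, 7.27 and 4.66 FPKM in 3M libraries. The groups overlapped only at library 76, which lay just under J13. The log2 fold change was 0.43 (SE 0.183, limma adjusted p = 0.193), and 0.26 without library J15. Pcsk2 (chromosome 2 at 143546156 to 143816285, + strand), which cuts precursors further and later, measured 63.0, 60.7 and 71.6 FPKM in 22M libraries, against 73.7, 66.4 and 69.7 FPKM in 3M libraries. Library 78 lay among the 3M libraries, and the log2 fold change was -0.10 (SE 0.0906, limma adjusted p = 0.489).

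Cpe (chromosome 8 at 64592542 to 64693054, - strand, 9 exons), the carboxypeptidase that acts after both convertases, had 746, 744 and 731 FPKM in 22M libraries, against 701, 838 and 754 FPKM in 3M libraries. The 3M libraries enclosed the 22M values. It averaged 740.4 ± 8.32 FPKM at 22M and 764 ± 68.8 FPKM at 3M (SD, n = 3 each). Its log2 fold change was -0.04 (SE 0.0900, limma adjusted p = 0.795, 95% interval -0.26 to 0.17), and its sign turned under other scalings, with the length correction and without J13.

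The mRNAs of both partner proteins of the convertases had lower means at 22M. Scg5 (chromosome 2 at 113776362 to 113829121, - strand, 6 exons), the chaperone of Pcsk2, had the smallest p of the 10 genes. Its level was 123, 121 and 121 FPKM in 22M libraries, against 165, 179.6 and 149 FPKM in 3M libraries. The 22M libraries lay close together and all below the 3M libraries. Scg5 averaged 122 ± 1.52 FPKM at 22M and 164 ± 15.4 FPKM at 3M (SD, n = 3 each). The log2 fold change was -0.43 (SE 0.0872), and the limma adjusted p of 0.0562 missed the threshold. It passed in limma with array weights (adjusted p = 0.0309) and without library J15 (adjusted p = 0.0431), where 9.93% and 4.18% of all genes passed. In no other alternative did Scg5 pass. Without J13, where it was highest, the log2 fold change was -0.36 (limma adjusted p = 0.159). Under quantile normalization it was -0.23 (limma adjusted p = 0.0804).

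Pcsk1n (X chromosome at 7919822 to 7924410, + strand), the source of the Pcsk1 inhibitor, measured 251, 209.8 and 192 FPKM in 22M libraries, against 283, 312 and 218 FPKM in 3M libraries. Library 72 lay above J15, so the groups overlapped. Pcsk1n averaged 218 ± 30.3 FPKM at 22M and 271 ± 48.4 FPKM at 3M (SD, n = 3 each), a log2 difference of -0.31 (SE 0.162, limma adjusted p = 0.271). That difference was smaller under quantile normalization (-0.12) and without library J13 (-0.20).

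The mRNA ratio of each convertase over its partner was taken within each library, which removes any scaling of whole libraries. The log2 ratio of Pcsk1 over Pcsk1n, from FPKM + 0.5, was -4.81, -4.76 and -4.29 in 22M libraries, against -5.33, -5.33 and -5.40 in 3M libraries. All 22M ratios lay above the 3M ratios, and the difference in means was 0.74 (exact two-sided permutation p = 0.1, the smallest that 3 against 3 allows). In linear terms Pcsk1n exceeded Pcsk1 by 20.5 to 29.7 times in 22M libraries and by 42.9 to 46.7 times in 3M libraries. The log2 ratio of Pcsk2 over Scg5 was -0.96, -0.99 and -0.75 in 22M libraries, against -1.16, -1.43 and -1.09 in 3M libraries. Again the groups did not overlap, and the difference was 0.32 (exact two-sided permutation p = 0.1). That for Pcsk2 over Scg5 was 0.22 without J13 and 0.39 without J15. Both differences were lower once the libraries had been corrected for length and GC content of the transcripts, an alternative added after the values were seen. The difference for Pcsk1 over Pcsk1n was then 0.35 (exact permutation p = 0.1), and that for Pcsk2 over Scg5 was -0.05 (exact permutation p = 0.6).

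**Figure D4:**
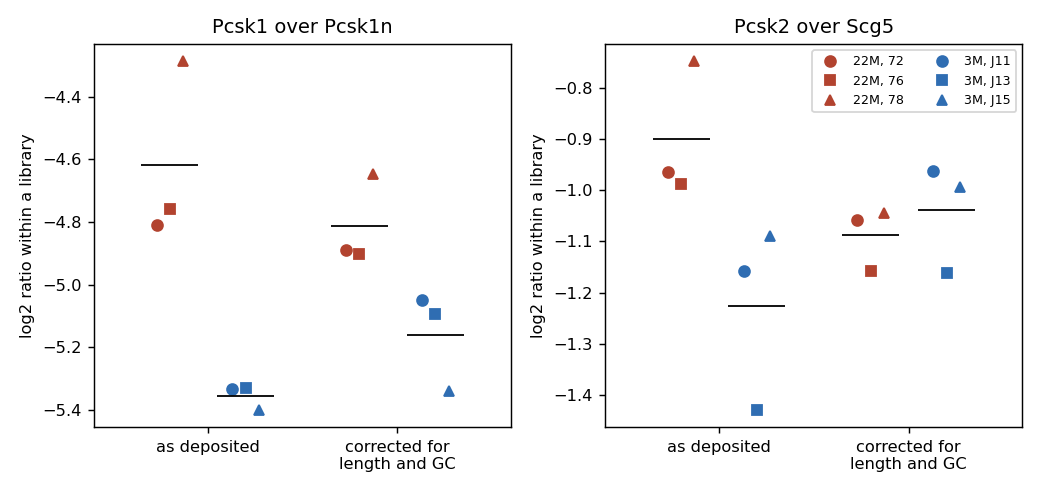
Log2 ratio of Pcsk1 over Pcsk1n and of Pcsk2 over Scg5 in each library, with 22M left of 3M and a bar at each mean, as deposited and after the length and GC correction. The deposited ratios do not overlap between the ages, and the corrected Pcsk2 over Scg5 ratios do.

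Transcript length moved with the age difference over the whole table, and the 10 genes differ much in length. When all tested genes were divided into 10 groups of rising length, the medians of the log2 fold changes ran between -0.34 for the shortest and 0.31 for the longest group. Scg5, with 1208 bases, lies in group 2, whose median was -0.26, beside its own -0.43. Chga, with 1883 bases, lies in group 3 with a median of -0.21, beside its own -0.37. Scg2, Scg3, Vgf, Pcsk1n and Cpe lie in group 4 with a median of -0.14, and of these Scg2, Vgf and Pcsk1n were below that median and Scg3 and Cpe above it. Pcsk2, with 4723 bases, lies in group 8 with a median of 0.08, beside its own -0.10, and Pcsk1, with 5040 bases, in group 9 with a median of 0.17, beside its own 0.43. After the correction the log2 fold changes were -0.25 for Scg5 (limma adjusted p = 0.148), -0.14 for Chga (adjusted p = 0.469), -0.33 for Scg2 (adjusted p = 0.322), -0.13 for Pcsk1n (adjusted p = 0.625), -0.40 for Vgf (adjusted p = 0.677), 0.21 for Pcsk1 (adjusted p = 0.596) and -0.30 for Pcsk2 (adjusted p = 0.134). None passed, and Pcsk2 had the smallest p of the 10 in that fit.

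**Figure D5:**
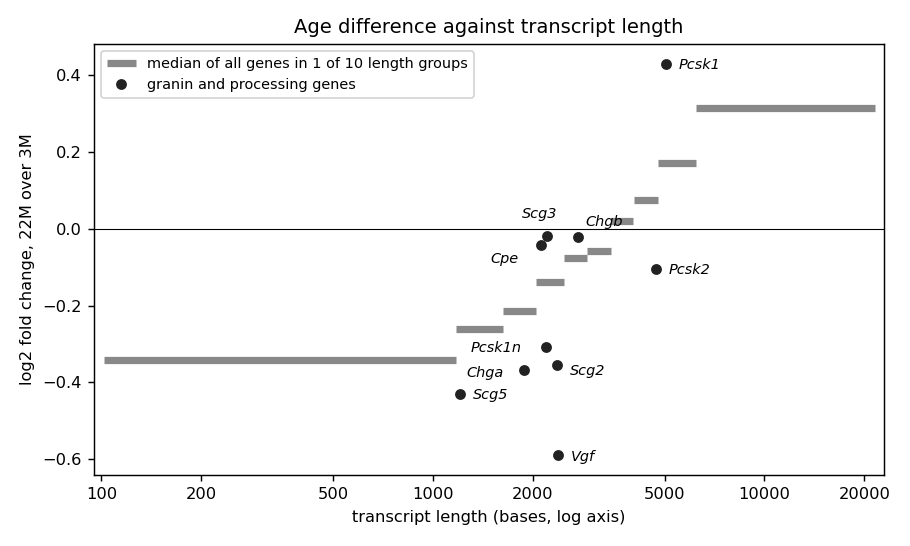
Log2 fold change, 22M over 3M, of each of the 10 genes (points) against transcript length in bases on a log axis, with the median of all tested genes in each of 10 length groups (grey bars). The grey bars climb from -0.34 in the shortest to 0.31 in the longest group, with Scg5 and Chga at the short end and Pcsk1 and Pcsk2 at the long end.

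Of 30 neuropeptide precursors, the cargo of the pathway, 23 were tested, and 0 rose and 0 fell by limma with 3 at an unadjusted p under 0.05. The shares over all genes were 0.92%, 1.21% and 27%. At the study's thresholds 1 was higher (Cort) and 2 were lower (Gal and Trh), against 4.08% and 4.22% of all genes. The median log2 fold change of the list was -0.26. Cort, the precursor of cortistatin, averaged 14.98 ± 1.70 FPKM at 22M and 7.29 ± 2.21 FPKM at 3M (SD, n = 3 each), with all 22M libraries above and a limma adjusted p of 0.0624. Trh, the precursor of thyrotropin-releasing hormone, measured 0.792, 0.465 and 0.436 FPKM in 22M libraries, against 9.18, 4.59 and 1.596 FPKM in 3M libraries (limma adjusted p = 0.0708). Gal, the precursor of galanin, was near the floor, with means of 0.201 FPKM at 22M and 1.01 FPKM at 3M (limma adjusted p = 0.0696). Gal passed the filter on low values only through the 3M libraries, so its call as lower is a description only. The same holds for how Avp passed the filter, with means of 0.179 FPKM at 22M and 1.12 FPKM at 3M. Both genes enter the median of the list. Npy, the precursor of neuropeptide Y, averaged 166 ± 2.99 FPKM at 22M and 131 ± 30.8 FPKM at 3M (SD, n = 3 each), with overlapping libraries and a limma adjusted p of 0.196. Of the precursors listed, 11 were highest in J11, where Penk, the enkephalin precursor, reached 663 FPKM, against 29.8 to 31.6 FPKM in 22M libraries and 41.3 and 51.4 FPKM in the other 3M libraries. Penk was singled out after its values were seen. Without J11 the list's median was -0.06, over 21 genes tested, with 0 past the adjusted p and 6 at an unadjusted p under 0.05. Gal and Avp did not pass the filter on low values there, so the genes differ as well as the libraries.

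Of 16 other processing enzymes listed 14 were tested, with a median log2 fold change of -0.06 (0.05 without J11). By limma 0 rose and 0 fell, against 0.92% and 1.21% of all genes. An unadjusted p under 0.05 was reached by 1, against 27% of all genes. That gene was Cpd, carboxypeptidase D of the trans-Golgi, at 16.0 ± 0.631 FPKM at 22M and 12.1 ± 1.17 FPKM at 3M (SD, n = 3 each), with all 22M libraries above and a limma adjusted p of 0.0780. Next by p came Qpctl, a glutaminyl cyclase of the Golgi (6.77 FPKM at 22M and 8.09 FPKM at 3M, limma adjusted p = 0.229), and Ece2, an endothelin-converting enzyme (3.06 FPKM at 22M and 4.43 FPKM at 3M, limma adjusted p = 0.262).

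Of the dense core granule machinery, 20 of 23 listed genes were tested, 0 rose and 1 fell, and 7 had an unadjusted limma p under 0.05. Over all genes 0.92% rose, 1.21% fell and 27% had such a p. The gene that fell was Rab2a, a small GTPase whose relative in the worm Caenorhabditis elegans acts in granule maturation. Rab2a measured 122, 126 and 128 FPKM in 22M libraries, against 158, 167 and 169 FPKM in 3M libraries, so that it fell by 0.39 on the log2 scale (SE 0.0682, limma adjusted p = 0.0490). That call held in 5 of 17 alternatives, with adjusted p between 0.0265 and 0.163, and was lost without J11 at a change of -0.42 (adjusted p = 0.0932) and after the length and GC correction at -0.33 (adjusted p = 0.0776). Ptprn2, a phosphatase-like protein of the granule membrane, measured 64.6, 73.9 and 89.6 FPKM in 22M libraries, against 52.1, 44.9 and 48.5 FPKM in 3M libraries. It was higher at the study's thresholds, as were 4.08% of all genes, with a limma adjusted p of 0.0584. Cadps, a priming factor of granule release, averaged 29.7 FPKM at 22M and 20.04 FPKM at 3M (limma adjusted p = 0.0623), and Rab27b, which docks granules, 7.77 FPKM at 22M and 5.43 FPKM at 3M (limma adjusted p = 0.0709). Hid1, a Golgi protein of granule formation, averaged 20.8 FPKM at 22M and 24.9 FPKM at 3M (limma adjusted p = 0.112). The median log2 fold change of the list was 0.07, beside -0.05 over all genes. Without J11 it was 0.09, with 0 that fell and 2 higher at the study's thresholds, against 15 and 583 of 13012 genes.

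Of 4 listed receptors of granin-derived peptides 3 were tested, 0 rose and 0 fell by limma with 1 at an unadjusted p under 0.05. The shares over all genes were 0.92%, 1.21% and 27%. The median log2 fold change of the 3 was -0.32, and -0.09 without J11. C1qbp, a mainly mitochondrial protein that was also reported to bind a Vgf peptide, averaged 42.6 ± 0.604 FPKM at 22M and 53.4 ± 2.63 FPKM at 3M (SD, n = 3 each), with no overlap and a limma adjusted p of 0.0628. Gpr83, a receptor of a Pcsk1n peptide, measured 3.75, 4.05 and 5.02 FPKM in 22M libraries, against 16.7, 4.30 and 4.81 FPKM in 3M libraries, and the high value was that of J11. C3ar1, which binds complement C3a and a Vgf peptide, was near 0.880 FPKM at 22M and 0.670 FPKM at 3M (limma adjusted p = 0.438).

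The genes whose profile over the 6 libraries was nearest that of the median of the 10 genes were Nsmce4a, Elp3, Pnrc1, Pitpnc1 and Cdc42, out of 5317 candidates with a mean of at least 10 FPKM. Likeness was the root mean square difference of centred log2(FPKM + 0.5) values, which was 0.0198 for Nsmce4a and 0.0341 for Cdc42, beside a median of 0.187 over all candidates. Their choice fixes their direction. Cdc42, for example, averaged 191 FPKM at 22M and 211 FPKM at 3M.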

How the data were processed

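Per the labels, total RNA of hippocampus was extracted with Trizol, mRNA was enriched on oligo beads and stranded libraries were made with the KAPA kit. The submitters' processing notes name HISAT2 and the build GRCm38 (mm10). Which program quantified transcripts, and with which annotation, is not given in the sources used here. FPKM were deposited by the authors for 25409 protein-coding transcripts in 6 libraries. These values hold no counts, so the depth is unknown and the only error is the spread among libraries. The FPKM listed summed to 318024 to 349911 in 22M libraries and to 344405 to 358073 in 3M libraries.

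FPKM were summed per gene, and the 13041 of 13321 genes with a mean of at least 0.5 entered limma 3.58.1 (R 4.3.3) as log2(FPKM + 0.5), with a variance trend, two-sided tests and p-values adjusted by the Benjamini-Hochberg method. Fold changes on that scale understate changes of low genes. The 23637 transcripts that passed the same minimum were fitted likewise. For ratios and shares, exact permutation tests (two-sided) were used. Lengths, exons and GC content came from GENCODE vM21 on GRCm38, where 99.7% of transcript identifiers matched, and 94.8% with the same version. Each library was corrected for length and GC by natural splines with 4 degrees of freedom each as an alternative. Motifs were searched on both strands of RefSeq promoters. The fits were tested on simulated data.

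The 10 genes, the lists of related genes and the markers were chosen with earlier results of these data known. Named were the 10 genes, list genes past the adjusted p and up to 4 more of each list by unadjusted p, and the 5 genes with the nearest profile. Not every gene this rule gives is printed. The other alternatives were pseudocounts of 0.1 and 1, no filter and a mean of at least 1 FPKM, median-of-ratios and quantile scaling, other variance models, single transcripts and leaving out each library. The length and GC correction of the ratios and the lists without J11 were added after the data were seen.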

Additional observations from a re-analysis of the deposited data

How the results depend on the processing

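Of 283 alternative values, 257 counted as unchanged. For a gene this meant the same sign and the same side of the adjusted p, and for a ratio or share the same sign only. For a count it meant the same number, and for the median a shift below the spread between libraries. Other filters, no trend and each gene's own variance cannot move a fold change. Single transcripts cannot alter the values of a gene with 1 listed transcript. The count of 257 is therefore no measure of stability. Array weights took Chga (-0.41, adjusted p = 0.0461) and Scg5 (-0.45, adjusted p = 0.0309) past the limma adjusted p, so 2 genes fell. Without J15, Scg5 passed (-0.50, adjusted p = 0.0431) and 1 gene fell. With the highest transcript only, 1 gene (Scg2) was lower at the study's thresholds (4.7% of all genes), and 1 (Vgf) without library 78 (3.88% of all genes). The sign of Chgb turned under median-of-ratios scaling (0.0325), quantile normalization (0.149) and the length and GC correction (0.0341). That of Scg3 turned under the same settings (0.0358, 0.177 and 0.0308), that of Cpe too (0.0129, 0.0992 and 0.0330), and that of Pcsk2 under quantile normalization (0.0199). All of these had an adjusted p above 0.05. The difference in the Pcsk2 over Scg5 ratio was -0.0476 after the length and GC correction. The median log2 fold change of the 10 genes was -0.15 under median-of-ratios scaling, -0.0514 under quantile normalization, -0.26 with the highest transcript only and -0.14 after the length and GC correction. Leaving out each library gave log2 fold changes of -0.23 to 0.18 for Chgb, -0.50 to -0.36 for Scg5 and -0.102 to 0.0262 for Cpe, medians of -0.27 to -0.17, and between 0 and 1 genes that fell and between 0 and 1 lower at the study's thresholds. The causes of these shifts were not tested. No paired analysis was possible because the library names carry no number shared between the ages. Depth is unknown, so no limit from counting error could be given.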

Other observations

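Vgf and other granin genes are known targets of neuronal activity, so 9 activity-induced genes were listed beside them. Of the 9 tested, 0 rose and 1 fell, against 0.92% and 1.21% of all genes, and 2 had an unadjusted limma p under 0.05, against 27% of all genes. The median log2 fold change was -0.26, beside -0.05 over all genes. Without J11 the median was -0.32, with 1 that fell and 2 lower by the study's thresholds, against 15 and 492 of 13012 genes. Junb, a transcription factor of the AP-1 family, measured 28.6, 29.2 and 27.6 FPKM in 22M libraries, against 45.7, 58.4 and 49.9 FPKM in 3M libraries, so that it fell by 0.83 on the log2 scale (SE 0.106, limma adjusted p = 0.0364). The call held in 9 of 17 alternatives, with adjusted p between 0.0192 and 0.142, and not after the length and GC correction (-0.57, adjusted p = 0.0776). Nr4a1, a nuclear receptor, averaged 37.5 ± 2.30 FPKM at 22M and 44.4 ± 3.35 FPKM at 3M (SD, n = 3 each), with no overlap and a limma adjusted p of 0.155. Fosb and Egr1, further transcription factors, had overlapping libraries, with means of 5.22 FPKM at 22M and 7.11 FPKM at 3M for Fosb (limma adjusted p = 0.275) and of 61.4 FPKM at 22M and 70.9 FPKM at 3M for Egr1 (limma adjusted p = 0.323).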
